A study of Mus musculus with 12 samples.

Results

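The transcripts described here encode 8 proteins that build iron-sulfur clusters in the matrix of mitochondria: Nfs1, Lyrm4, Iscu, Hscb, Glrx5, Isca1, Isca2 and Nfu1. They were chosen by name for their place in this pathway, out of 24343 genes with a unique name in the deposited tables. All 8 passed the filter on low values that 11924 genes passed. RNA was sequenced from 12 libraries of HT22 cells, an immortalized mouse hippocampal neuronal cell line, with 3 biological replicates in each of 4 groups. Cells received a control siRNA (siControl) or an siRNA against Ncoa4 (siNCOA4), delivered with a lipid reagent, and were left without chelator or treated with the iron chelator DFO (deferoxamine) at 100 µM for 24 h. The groups are called siControl, siNCOA4, siControl+DFO and siNCOA4+DFO, and all of them carry a transfected siRNA. The siRNA lowers Ncoa4 but does not delete it, and HT22 is a dividing line and no primary neuron. The sources used here do not say whether replicates with the same number shared a culture, so p-values measure the spread between these libraries.

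NCOA4 is the receptor that delivers ferritin to the lysosome, where its stored iron is released. DFO binds iron and so restricts the iron available to the cell. Mitochondria combine iron with sulfur into clusters that serve as cofactors of the respiratory chain, of aconitases and of DNA replication and repair enzymes. The desulfurase NFS1, held stable by its small partner LYRM4 (also called ISD11), takes sulfur from cysteine, and a cluster is put together on the scaffold ISCU. The co-chaperone HSCB helps to release the finished cluster, which GLRX5 receives. ISCA1, ISCA2 and NFU1 act later and are needed for the clusters that enzymes such as lipoic acid synthase and respiratory complex I carry.

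Values are FPKM as deposited, a unit in which fragment counts are divided by transcript length and by the mapped fragments of the library. Such values can be compared between genes. How these values were made, and whether the library totals were scaled further, is not given in the sources used here. Differences were fitted by limma to log2(FPKM + 0.1), with Benjamini-Hochberg adjustment over all genes tested, and a call is an adjusted p below 0.05. Every log2 fold change below is on that scale. Ncoa4 checked the labels: it lay between 6.02 and 8.70 FPKM in the 6 libraries with control siRNA and between 0.770 and 1.57 FPKM in the 6 with Ncoa4 siRNA, without overlap. Tfrc, the transferrin receptor whose transcript is stabilized when iron is scarce, lay between 66.0 and 80.0 FPKM without DFO and between 224 and 348 FPKM with it. With siControl replicate 1 set to 1, relative depth was 0.928 to 1.41 over the libraries, estimated from the steps between low values. It was 1.26 to 1.41 in siNCOA4, above every other library. Pairs of replicates had r between 0.926 and 0.955 over all tested genes, a description only since genes are not independent. Small RNA genes held 36.6 to 41.5% of the summed FPKM without DFO and 42.4 to 52.7% with it. Of 8 neuronal markers, only Tubb3 reached 1 FPKM in siControl, while Map2, Rbfox3, Snap25 and Dcx were listed at or near 0. Their sum was 7.94 to 8.56 FPKM in siControl, 4.93 to 6.60 in siNCOA4, 12 to 13.6 in siControl+DFO and 5.60 to 9.51 in siNCOA4+DFO. Of 12 markers of other cell types 5 reached 1 FPKM in siControl, led by the mesenchymal genes Vim and Col1a2 (means of 1600 and 1000 FPKM), and Gfap, Aqp4, Aif1, Ptprc and Cldn5 were listed at 0 there. Their sum was 2800 to 3210 FPKM in siControl, 2090 to 2240 in siNCOA4, 1800 to 1870 in siControl+DFO and 1560 to 1690 in siNCOA4+DFO. The part of these shifts in the results was not tested. Fewer cells of a kind and less RNA per cell cannot be told apart in such bulk libraries.

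In siControl cells the 8 transcripts spanned from 4.66 to 38.7 FPKM on average. Glrx5 was highest (38.7 ± 2.80 FPKM, mean ± SD, n = 3), followed by Nfu1 (34.3 ± 5.37 FPKM) and Iscu (19.5 ± 2.87 FPKM). Isca1, Nfs1, Lyrm4 and Isca2 had means from 7.37 to 11.6 FPKM, and Hscb was lowest at 4.66 ± 1.51 FPKM. The library values of Glrx5 and Nfu1 overlapped, and so did those of each neighbouring pair from Isca1 down to Hscb, so that their order is not settled. The gaps from Nfu1 to Iscu and from Iscu to Isca1 were free of overlap. Nfs1 stood at place 5 of 8 in siControl and at place 8 in both groups with DFO. In siNCOA4+DFO its values overlapped those of Hscb, so its place is not settled there, as in siControl.

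**Figure D1:**
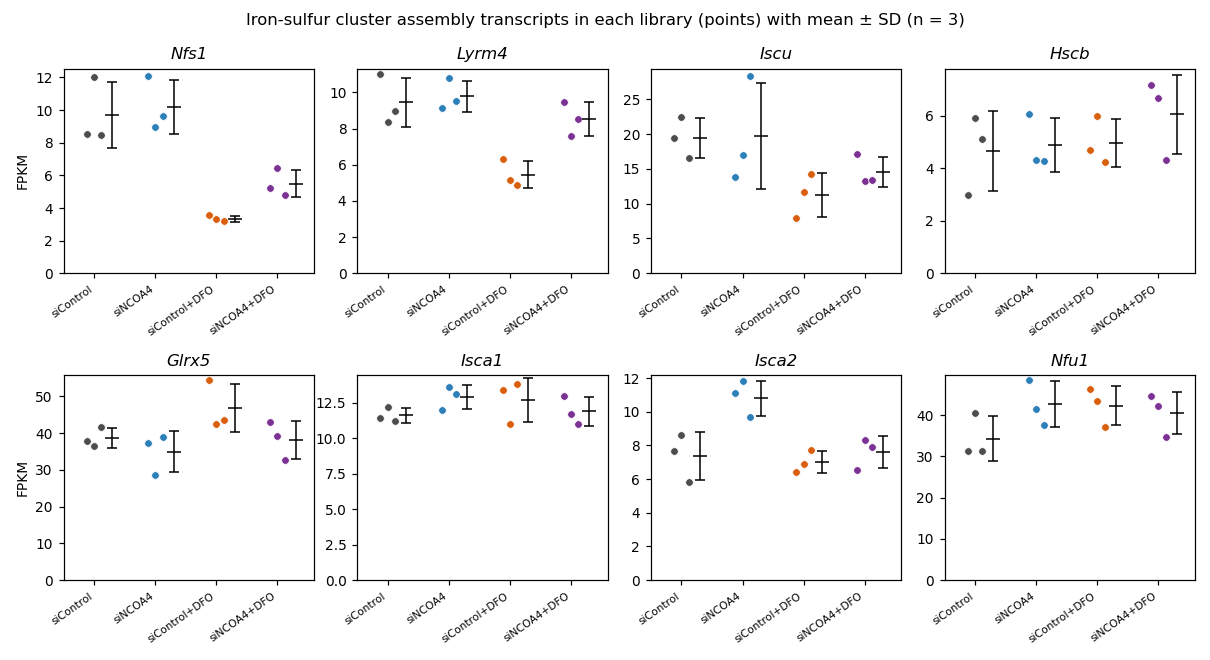
FPKM (y axis, from 0) of each of the 8 transcripts in the 4 groups (x axis). Points are single libraries in replicate order, and the bar beside them is the mean ± SD (n = 3). All siControl+DFO libraries of Nfs1, Lyrm4 and Iscu lie below all siControl libraries, and all siNCOA4 libraries of Isca2 lie above all siControl libraries.

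DFO lowered the transcripts of the desulfurase, its partner and the scaffold in cells with control siRNA. Nfs1 fell to 34.6% of its siControl mean, Lyrm4 to 57.8% and Iscu to 58.1%, while Hscb, Glrx5, Isca1, Isca2 and Nfu1 did not pass the test. These 3 falls make up 37.5% of the 8 genes, and no member rose. Of all genes tested, 53.4% were called in this comparison and 25.7% were called lower. A response to DFO was thus common among all genes, and a count of 3 of 8 is not a result about the pathway. The median log2 fold change of the 8 was 0.03, against -0.01 over all genes tested. With the added requirement of a fold change above 2, 18.8% of genes were called, and Nfs1 was the only member among them.

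Nfs1, the cysteine desulfurase that supplies the sulfur, was at 8.56, 12 and 8.50 FPKM in siControl replicates 1 to 3 and at 3.56, 3.30 and 3.20 FPKM in siControl+DFO. The highest DFO library was thus well below the lowest control library, and the DFO libraries lay close together. Its log2 fold change was -1.49 (95% interval -1.86 to -1.11), with an adjusted p of 1.51e-05. This is a 2.8-fold fall, which stayed past the threshold in the 9 alternatives that kept all libraries and with each library of either group left out.

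Lyrm4, which encodes the small protein that NFS1 needs to be stable, was at 11, 8.35 and 8.98 FPKM in siControl and at 6.31, 5.17 and 4.87 FPKM in siControl+DFO. The groups did not overlap. The log2 fold change was -0.78 (95% interval -1.09 to -0.47, adjusted p = 6.64e-04), and it too held in those alternatives and with each library left out.

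Iscu, the scaffold, was at 19.4, 22.4 and 16.6 FPKM in siControl and at 7.93, 11.7 and 14.3 FPKM in siControl+DFO. The DFO libraries were all lower but spread widely, with a coefficient of variation of 28.2%. The log2 fold change was -0.81 (95% interval -1.37 to -0.25, adjusted p = 0.0182). Without siControl replicate 2 the adjusted p was 0.0666, and without siControl+DFO replicate 1 it was 0.0824, so the call rests on those libraries.

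The genes that act after the scaffold gave values near or above control. Glrx5, the monothiol glutaredoxin that takes up the cluster, was at 37.9, 36.4 and 41.8 FPKM in siControl and at 54.4, 42.6 and 43.6 FPKM in siControl+DFO. Every DFO library was higher, but replicate 1 stood far above the others, and the log2 fold change of 0.27 had an interval of -0.03 to 0.57 (adjusted p = 0.12). Nfu1, a late carrier of 4Fe-4S clusters, was at 31.2, 40.5 and 31.3 FPKM in siControl and at 46.4, 43.4 and 37.2 FPKM in siControl+DFO. Its groups overlapped through siControl replicate 2, with a log2 fold change of 0.31 (interval 0.01 to 0.61, adjusted p = 0.0774). Without that library the adjusted p was 0.0227. The intervals of Hscb (-0.46 to 0.72), Isca1 (-0.11 to 0.36) and Isca2 (-0.40 to 0.29) span 0. A rise or fall of those sizes cannot be told from no change with these libraries.

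The sum of Nfs1, Lyrm4 and Iscu shows the same values by role. It was 34.1 to 42.7 FPKM per library in siControl, 35 to 47.5 FPKM in siNCOA4, 17.8 to 22.3 FPKM in siControl+DFO and 26.8 to 31.8 FPKM in siNCOA4+DFO. The sum of the other 5 genes, whose level is set mostly by Glrx5 and Nfu1, was 91.2 to 104 FPKM in siControl and 107 to 125 FPKM in siControl+DFO. It was 99.7 to 115 FPKM in siNCOA4 and 90.6 to 114 FPKM with both treatments.

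Of the 8 members, Nfs1 fell in siNCOA4+DFO relative to siControl, and it was the only one called. The background there was 48.8% of all genes called and 23.4% called lower. Nfs1 was at 5.25, 6.43 and 4.81 FPKM in siNCOA4+DFO, all below the siControl libraries and all above those with DFO and control siRNA. The log2 fold change was -0.80 (95% interval -1.17 to -0.43, adjusted p = 0.00205). Lyrm4 was at 9.46, 7.57 and 8.52 FPKM, within or near the siControl range, with a log2 fold change of -0.14 (interval -0.46 to 0.17). Iscu was at 17.1, 13.3 and 13.4 FPKM, and its log2 fold change of -0.41 had an interval of -0.97 to 0.15.

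Set against DFO alone, cells with both treatments had higher Nfs1 and Lyrm4. These 2 of 8 calls, both rises, compare with 16.5% of all genes called. Of the 11924 genes tested, 742 were called higher and 1221 lower. Whether the members differ from all genes in this was not tested. All siNCOA4+DFO libraries lay above all siControl+DFO libraries for both genes. The log2 fold change was 0.69 for Nfs1 (95% interval 0.31 to 1.06, adjusted p = 0.0179) and 0.64 for Lyrm4 (interval 0.32 to 0.95, adjusted p = 0.0113). That of Iscu was 0.40 (interval -0.16 to 0.96, adjusted p = 0.309), with overlapping groups. Lyrm4 kept its call with each library left out. Nfs1 lost it without siControl+DFO replicate 2 (adjusted p = 0.0534) or replicate 3 (adjusted p = 0.0512), and without siNCOA4+DFO replicate 2 (adjusted p = 0.0638). Glrx5 had the lowest value of the 8 in this comparison, a log2 fold change of -0.29 (interval -0.60 to 0.01, adjusted p = 0.166).

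Within cells that received Ncoa4 siRNA, DFO lowered Nfs1 and Isca2. In this comparison 42.7% of all genes were called and 19.6% were called lower. Nfs1 went from 12.1, 8.95 and 9.61 FPKM in siNCOA4 to the values with both treatments given above, without overlap, and its log2 fold change was -0.88 (95% interval -1.25 to -0.51, adjusted p = 0.00131). Lyrm4 had a log2 fold change of -0.20 (interval -0.51 to 0.11, adjusted p = 0.287) and Iscu one of -0.37 (interval -0.93 to 0.19, adjusted p = 0.266).

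Whether DFO acted differently with and without Ncoa4 siRNA is the interaction, the change from DFO in siNCOA4 cells minus that in siControl cells. None of the 8 passed an adjusted p below 0.05 in limma, as 2.1% of all genes did. Lyrm4 and Nfs1, 2 of 8, had an unadjusted p below 0.05, as did 2167 of all 11924 genes tested. In limma, Lyrm4 had an interaction of 0.58 (adjusted p = 0.156) and Nfs1 had one of 0.61 (adjusted p = 0.207). The 95% intervals of the difference, 0.13 to 1.02 for Lyrm4 and 0.08 to 1.13 for Nfs1, are for single genes and not adjusted. A smaller fall of Nfs1 and Lyrm4 in the presence of Ncoa4 siRNA is therefore seen in the values and was not established by this test.

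**Figure D2:**
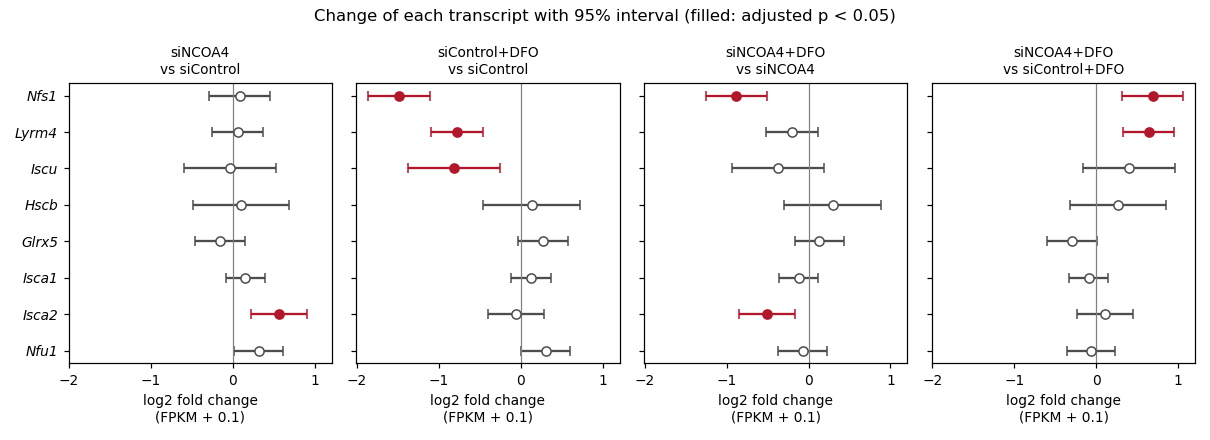
Log2 fold change of log2(FPKM + 0.1) (x axis) for each transcript (y axis, in the order of the pathway) in 4 comparisons, with its 95% interval. Filled red points have an adjusted p below 0.05. Nfs1, Lyrm4 and Iscu lie left of 0 for DFO with control siRNA, and Nfs1 and Lyrm4 lie right of 0 when both treatments are set against DFO alone.

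Ncoa4 siRNA without DFO left Nfs1, Lyrm4 and Iscu near control. Isca2, an A-type carrier needed for 4Fe-4S clusters, was the only member called, against 11.7% of all genes. It was at 7.68, 8.61 and 5.82 FPKM in siControl and at 11.1, 11.8 and 9.70 FPKM in siNCOA4, so the groups did not overlap. The log2 fold change was 0.56 (95% interval 0.22 to 0.91, adjusted p = 0.0372), a level of 147% of siControl. These were also the libraries of greatest relative depth (1.26 to 1.41, against 1 to 1.25 in siControl), whose part in the result was not tested. The call was lost in 5 of 6 cases in which a library was left out, with an adjusted p of up to 0.13, and it held only without siControl replicate 2. It was also lost with no filter on low values (adjusted p = 0.0569) and with the compared groups fitted alone (adjusted p = 0.0600). With DFO the rise was not seen: Isca2 was at 6.43, 6.92 and 7.70 FPKM in siControl+DFO and at 6.53, 8.35 and 7.88 FPKM in siNCOA4+DFO. The fall from siNCOA4 to siNCOA4+DFO had a log2 fold change of -0.51 (interval -0.85 to -0.17, adjusted p = 0.0195), and this was lost without siNCOA4 replicate 1 or 2 or siNCOA4+DFO replicate 1, with an adjusted p of up to 0.0795. The interaction for Isca2 was -0.46 (interval -0.94 to 0.03, adjusted p = 0.304).

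Isca1, whose protein works together with ISCA2, was among the steadiest of the 8. It was at 11.4, 12.2 and 11.2 FPKM in siControl, 12, 13.6 and 13.1 FPKM in siNCOA4, 13.4, 11 and 13.8 FPKM in siControl+DFO and 13.0, 11.7 and 11 FPKM in siNCOA4+DFO. Its values overlapped siControl in all 3 treated groups. The ratio of Isca1 to Isca2 was 1.42 to 1.93 in siControl libraries and 1.08 to 1.35 in siNCOA4 libraries. It was 1.58 to 2.09 in siControl+DFO and 1.39 to 1.99 in siNCOA4+DFO, so siNCOA4 alone lay apart from the other groups.

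Hscb, Glrx5 and Nfu1 were not called with Ncoa4 siRNA. Hscb, the co-chaperone, was at 2.98, 5.90 and 5.11 FPKM in siControl and at 6.07, 4.30 and 4.26 FPKM in siNCOA4. It was at 4.70, 6 and 4.23 FPKM in siControl+DFO and at 7.17, 6.67 and 4.33 FPKM in siNCOA4+DFO. Its replicates spread the most in siControl (coefficient of variation 32.5%), and all 4 groups overlapped. Glrx5 was at 37.3, 28.6 and 39.0 FPKM in siNCOA4 and at 42.9, 39.1 and 32.6 FPKM in siNCOA4+DFO, both ranges including siControl values. Nfu1 was at 48.6, 41.5 and 37.6 FPKM in siNCOA4, with a log2 fold change of 0.31 (interval 0.02 to 0.61, adjusted p = 0.169), and at 44.6, 42.1 and 34.8 FPKM in siNCOA4+DFO.

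Across the 12 libraries, Nfs1 correlated with Lyrm4 at Pearson r = 0.786 and with Iscu at r = 0.674, and Lyrm4 correlated with Iscu at r = 0.578. Glrx5 and Isca2 had r = -0.704, and Hscb and Nfu1 had r = 0.652. These values describe log2(FPKM + 0.1) over libraries that fall into the 4 groups, so the treatments themselves shape them. Among genes with a mean of at least 1 FPKM, the pattern most like that of Nfs1 was in Tpgs2 (r = 0.983), Arhgef25 (r = 0.976) and Slc35a4 (r = 0.967). For Lyrm4 these were Zfp157 (r = 0.944), Nfatc3 (r = 0.932) and Siae (r = 0.929), and for Iscu they were Jkamp (r = 0.894), Mfsd12 (r = 0.888) and Sh3bgrl3 (r = 0.882). Glrx5 was most like Nmnat1 (r = 0.905), Rnps1 (r = 0.893) and Rbm10 (r = 0.889), and Isca2 was most like Pafah1b3 (r = 0.891), Arhgap42 (r = 0.880) and Mgst2 (r = 0.874). Isca1 was most like Lactb (r = 0.884), Pex3 (r = 0.817) and Elp6 (r = 0.793). Hscb was most like Cd68 (r = 0.841), Ift27 (r = 0.826) and Ap5z1 (r = 0.800), and Nfu1 was most like Rmdn3 (r = 0.840), Gm12191 (r = 0.836) and Ttc9c (r = 0.830). Each r is over 12 libraries.

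In the mm10 build the 8 genes lie on 5 chromosomes. Nfs1 is at chr2:156123639-156144186 on the minus strand and Lyrm4 at chr13:35978395-36117526 on the minus strand. Iscu is at chr5:113772748-113778288 (plus) and Hscb at chr5:110829070-110839777 (minus). Isca1 lies at chr13:59755409-59769810 (minus), Isca2 at chr12:84773251-84775088 (plus), Glrx5 at chr12:105032688-105042906 (plus) and Nfu1 at chr6:87009236-87028461 (plus). Of the 8, 5 have a protein-coding gene that starts within 1000 bases on the opposite strand. These pairs are Nfs1 with Romo1 (147 bases between the annotated starts), Lyrm4 with Fars2 (114), Iscu with Sart3 (238), Hscb with Chek2 (202) and Isca2 with Npc2 (99). The exons of Nfs1 and Romo1 share 148 bases and those of Lyrm4 and Fars2 share 115 bases. Whether fragments were counted by strand is not given in the sources used here, so reads from these shared bases could count for either gene.

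Some neighbours were called where their partners were not, or the reverse, which is not a test of a difference between them. With DFO and control siRNA, Fars2, a mitochondrial phenylalanyl-tRNA synthetase, fell with Lyrm4 (log2 fold change -0.82, adjusted p = 0.0113). Romo1, a mitochondrial inner membrane protein, stood at -0.59 (adjusted p = 0.0670) beside the -1.49 of Nfs1. With both treatments set against DFO alone, in which Nfs1 and Lyrm4 were higher, Romo1 had a value of 0.25 (adjusted p = 0.543) and Fars2 one of 0.14 (adjusted p = 0.742). Sart3, an RNA-binding factor in spliceosome recycling, stood at -0.20 with DFO (adjusted p = 0.0630) beside -0.81 for Iscu. With Ncoa4 siRNA Sart3 fell by 0.71 on the log2 scale (adjusted p = 2.56e-04), where Iscu gave -0.04. Chek2, the checkpoint kinase, rose with DFO by 0.75 on the log2 scale (adjusted p = 0.00807) beside 0.13 for Hscb. Npc2, a lysosomal cholesterol-binding protein, had a log2 fold change of -0.17 with Ncoa4 siRNA (adjusted p = 0.343), where Isca2 rose. The pairs were found from the annotation after the members' values were known, and differences between partners were not tested.

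**Figure D3:**
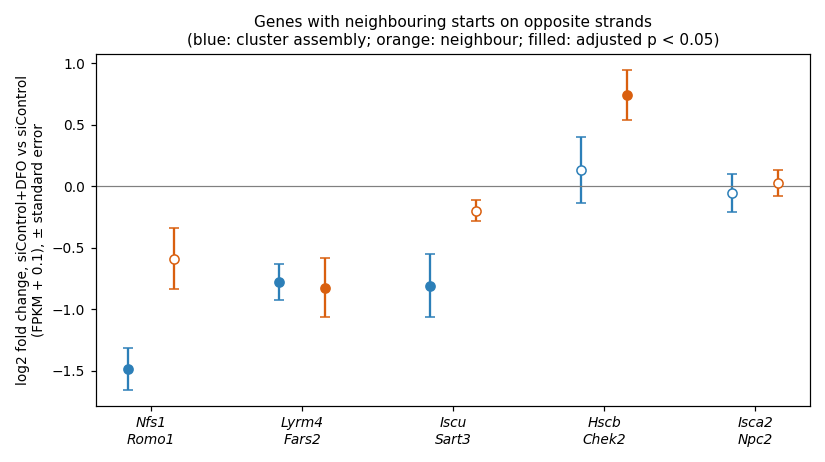
Log2 fold change of siControl+DFO against siControl (y axis, log2(FPKM + 0.1), ± standard error) for 5 cluster assembly genes (blue) and the protein-coding gene that starts beside each on the opposite strand (orange). Filled points have an adjusted p below 0.05. Lyrm4 and Fars2 lie at like values, and Nfs1 lies below Romo1.

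The RefSeq promoter table (GRCm38.p6) held entries for 6 of the 8: Nfs1, Lyrm4, Glrx5, Isca1, Isca2 and Nfu1. The 250 bases before each start were searched on both strands for the hypoxia response cores ACGTG and GCGTG, since DFO also stabilizes hypoxia-inducible factors. They were searched as well for CCAAT and for GCATGCGC, a part of the element of NRF1, a regulator of mitochondrial genes. ACGTG was found in 0 of 6 (16.6% of 32851 promoters). GCGTG was found in 4 of 6, Nfs1, Lyrm4, Glrx5 and Isca2 (28.2% of promoters). A link between these matches and the response to DFO was not tested. CCAAT was found in Glrx5, Isca1, Isca2 and Nfu1 and in neither Nfs1 nor Lyrm4 (33.8% of promoters). GCATGCGC was found in 0 of 6 (2.26% of promoters). No match overlapped a match of another motif in these windows, and a match of letters is a description and no evidence of binding. The windows of Nfs1 and Lyrm4 had a GC content of 70.8% and 72.8%, against a median of 52.4% over all promoters. Some RefSeq starts differ from those of the loci given above. The window of Nfu1 (chr6:87009586-87009835) lies within its locus. Those of Lyrm4 (chr13:36117358-36117607), Isca1 (chr13:59769790-59770039) and Isca2 (chr12:84773020-84773269) lie partly within theirs.

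The GCGTG matches of Nfs1 and Lyrm4 are shown because both genes fell with DFO and control siRNA. With both treatments against siControl, Nfs1 was called lower and Lyrm4 was not. The matches of Glrx5, which was not called with DFO and control siRNA, are not shown. The match of Isca2, also not called there, lies 79 bases before the start. It falls within the stretch of Isca2 given below, where it is left in small letters. Iscu, which also fell, had no promoter entry. The windows of Nfs1 and Lyrm4 lie wholly within annotated exons, their own or those of Romo1 and Fars2. For this reason 30 bases around each match are given, read on the strand of the gene. Capitals mark GCGTG or its reverse complement.
Nfs1, chr2:156144334-156144363, minus: gccagcccgcggCACGCctccaccaccctc
Nfs1, chr2:156144300-156144329, minus: tggaggaccccgCACGCgcgacgcaggcca
Lyrm4, chr13:36117575-36117604, minus: caggtgtaggggGCGTGgtgtcaggagaca
Lyrm4, chr13:36117544-36117573, minus: cgggatctcggcCACGCccccgggcggttc
For the carrier pair Isca1 and Isca2, of which Isca2 was called with Ncoa4 siRNA, the longest stretch before the start that lies outside annotated exons is shown, with CCAAT or its reverse complement in capitals. That of Isca2 is the whole gap of 98 bases between it and Npc2.
Isca1, chr13:59769859-59769964, minus: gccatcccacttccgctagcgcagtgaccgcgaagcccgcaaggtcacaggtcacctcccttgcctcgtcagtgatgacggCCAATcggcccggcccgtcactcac
Isca2, chr12:84773153-84773250, plus: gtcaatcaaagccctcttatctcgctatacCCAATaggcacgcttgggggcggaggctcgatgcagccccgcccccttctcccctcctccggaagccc

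Reads of some members could also have been assigned to other genes. Of the 75-base windows of their annotated transcripts, 7.15% of Nfs1 occur on either strand in Gm28036 or Romo1, 2.04% of Lyrm4 in Fars2 and 5.26% of Iscu in Gm16437. For Isca1 the share was 11.9%, mostly with AK157302, and for Nfu1 it was 0.464%. Hscb, Glrx5 and Isca2 had no such window. Most windows of each transcript matched no other gene.

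The other genes of the pathway were taken from 6 lists by role. The list of de novo assembly holds 8 genes, among them Nfs1, Lyrm4 and Iscu. With DFO and control siRNA 5 of its 8 genes fell and none rose, with a median log2 fold change of -0.62. Of all genes tested, 25.7% were called lower there. Nfs1, Lyrm4 and Iscu, reported above, are 3 of the 5 falls. Besides those 3, they included Ndufab1 (-0.32, adjusted p = 0.0461), the mitochondrial acyl carrier protein that binds LYRM4. With both treatments 3 of 8 fell relative to siControl, among them Nfs1 and Fdx1 (-0.58, adjusted p = 0.0307), a ferredoxin that hands on electrons. Of all genes tested, 23.4% were called lower in this comparison. Over the 9 alternatives that kept all libraries, the list had 4 to 5 calls with DFO and 2 to 3 with both treatments. Both were lowest with no filter on low values. With Ncoa4 siRNA alone 0 of 8 passed the limma test, also in each of the 9 alternatives that kept all libraries. In that comparison 1 of 8 had an unadjusted p below 0.05 in limma, as did 3129 of all 11924 genes tested.

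Among 12 genes of cluster transfer and late assembly, which include Hscb, Glrx5, Isca1, Isca2 and Nfu1, 2 rose and 1 fell with DFO. These 3 of 12 calls compare with 53.4% of all genes called. Hspa9, the mitochondrial chaperone that works with HSCB, rose by 1.11 on the log2 scale (adjusted p = 6.87e-07). Iba57, a late assembly factor that works with the ISCA proteins, rose by 1.03 (adjusted p = 0.00604), and Bola3, a partner of GLRX5 and NFU1, fell by 0.56 (adjusted p = 0.0138). With both treatments Hspa9 (0.74, adjusted p = 2.43e-05) and Iba57 (1.23, adjusted p = 0.00219) were higher than in siControl. These 2 of 12 calls compare with 48.8% of all genes called. The median of the list was 0.16 with DFO and 0.14 with both treatments.

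Of 6 genes of mitochondrial iron and sulfur transport, 2 rose with DFO: Gfer (1.16, adjusted p = 1.47e-05), a sulfhydryl oxidase of the intermembrane space, and Slc25a37 (0.63, adjusted p = 0.00274), mitoferrin 1. These and the calls below stand beside 53.4% of all genes called with DFO, 48.8% with both treatments and 11.7% with Ncoa4 siRNA. With both treatments Gfer (0.88, adjusted p = 1.53e-04), Slc25a37 (0.66, adjusted p = 0.00214) and Slc25a28 (0.46, adjusted p = 0.0146), mitoferrin 2, were higher and Abcb10 (-0.26, adjusted p = 0.0281), an inner membrane transporter, was lower. With Ncoa4 siRNA alone Abcb10 (-0.47, adjusted p = 0.00623) fell. Of 11 genes of cytosolic cluster assembly, Glrx3 (0.69, adjusted p = 0.0479) and Ndor1 (0.52, adjusted p = 0.0300) rose with DFO, and 5 of the 9 alternatives called 1 gene of that list. Fam96a rose with Ncoa4 siRNA (0.37, adjusted p = 0.0230) and with both treatments (0.24, adjusted p = 0.0475), where Nubp1 fell (-0.35, adjusted p = 0.0212).

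The proteins that carry the clusters were also followed. Of 15 genes for mitochondrial iron-sulfur proteins, 9 fell and 1 rose with DFO, with a median log2 fold change of -0.37. The largest falls were in Fech (-0.77, adjusted p = 5.91e-05), the last enzyme of heme synthesis, and in the complex I subunits Ndufs8 (-0.62, adjusted p = 0.00521) and Ndufs7 (-0.54, adjusted p = 0.0109). With both treatments 8 of 15 fell and none rose, led by Ndufs8 (-0.90, adjusted p = 4.76e-04), the tRNA methylthiotransferase Cdk5rap1 (-0.75, adjusted p = 0.0220) and Ndufs7 (-0.61, adjusted p = 0.00586). With Ncoa4 siRNA alone only Etfdh (0.37, adjusted p = 0.0321), which passes electrons to ubiquinone, was called. Of 16 genes for cytosolic and nuclear iron-sulfur proteins, 7 fell and none rose with DFO, at a median of -0.30. The largest were Mutyh (-1.93, adjusted p = 0.00756), a DNA glycosylase, Pold1 (-0.84, adjusted p = 2.68e-04), the catalytic subunit of DNA polymerase delta, and Dna2 (-0.74, adjusted p = 0.00193), a nuclease-helicase. Mutyh was low and spread widely, at 0.412, 0.175 and 1.30 FPKM in siControl+DFO and 1.75 to 2.99 FPKM in siControl. With both treatments 4 fell and 2 rose, with Nthl1 (0.83, adjusted p = 0.0118), another glycosylase, Pold1 (-0.78, adjusted p = 5.19e-04) and Aco1 (-0.64, adjusted p = 0.00163), the cytosolic aconitase and iron regulatory protein, the furthest from 0. With Ncoa4 siRNA alone 0 of 16 were called by limma. In that fit 4 had an unadjusted p below 0.05, as did 3129 of all 11924 genes tested. The calls in these lists stand beside the 53.4%, 48.8% and 11.7% of all genes called in the 3 comparisons with siControl. Of all genes, 25.7% were called lower with DFO and 23.4% with both treatments.

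**Figure D4:**
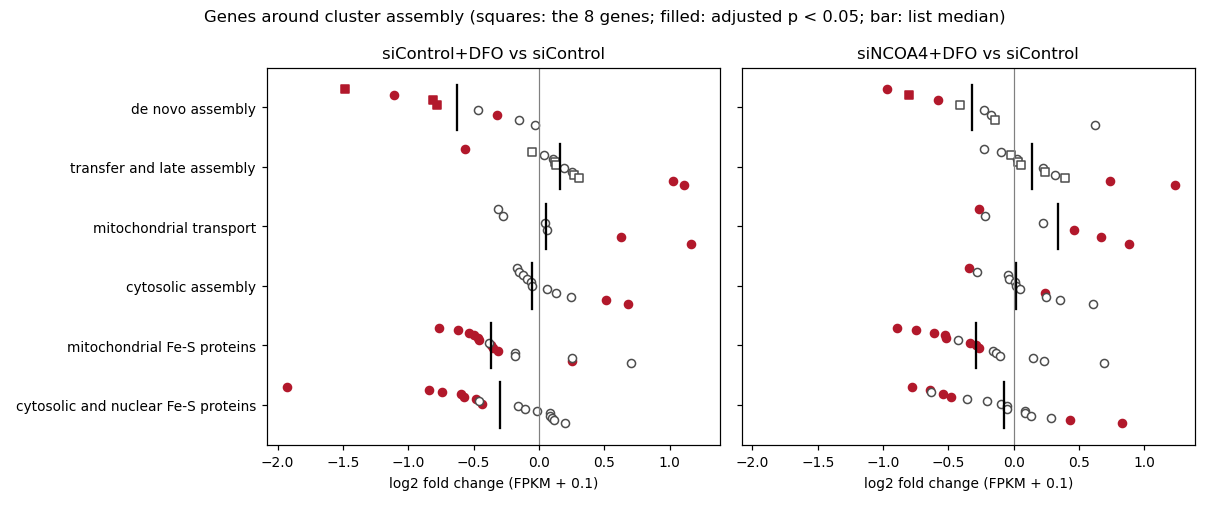
Log2 fold change of log2(FPKM + 0.1) (x axis) against siControl for the genes of 6 lists around cluster assembly (y axis), with DFO and control siRNA (left) and with both treatments (right). Each mark is a gene, squares are the 8 members, filled red marks have an adjusted p below 0.05 and the black bar is the list's median. Nfs1 lies furthest left in the de novo list with DFO.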

How the data were processed

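RNA-seq FPKM were analysed for 12 HT22 libraries in 4 groups of 3, grouped by their labels. The kit was a stranded total RNA kit of low input. The authors deposited FPKM per gene, 1 table per library. The submitters' processing notes name Trimmomatic 0.33, FastQC, HISAT2 2.1.0, featureCounts, edgeR and the mm10 build. The step that made the FPKM, its annotation and its strand setting are not given in the sources used here. Fragment totals are unknown, so no counting intervals were made, and since FPKM are not counts no count test was used.

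Of 24347 entries, 4 that shared a name were left out. Testing was limited to genes that reached an FPKM of 0.5 in 3 or more libraries. limma 3.58.1 (R 4.3.3) fitted a means model to log2(FPKM + 0.1) of the 12 libraries, moderated with a mean-variance trend (8 residual and 4.07 prior degrees of freedom), with two-sided Benjamini-Hochberg adjusted p-values within each comparison. The pseudocount understates changes of low genes. The comparisons with siControl share its libraries. The fit was tested on simulated data. Loci and shared windows come from GENCODE M21 and promoters from RefSeq (GRCm38.p6), read with Python 3.11.15.

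The genes named were the 8 members, Ncoa4 and Tfrc as checks, up to 3 called genes of largest change per list and comparison with siControl, and the 3 genes most like each member. Genes with neighbouring starts were added later. Some genes that the rule names are not reported here. Members and lists were chosen with earlier results of these data known. Alternatives were pseudocounts of 1 and 0.01, no filter and FPKM of at least 2, median-of-ratios scaling, scaling without small RNA genes, a replicate block, moderation without a trend, the compared groups alone, each library left out, and a fold change above 2. The median-of-ratios factors were 1.0035 to 1.013 over the libraries, so that alternative differed little from the main fit.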

Additional observations from a re-analysis of the deposited data

How the results depend on the processing

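The falls of Nfs1 and Lyrm4 with DFO and the higher Lyrm4 with both treatments than with DFO alone held in the 9 alternatives that kept all libraries and with each library left out. With a fold change above 2 required as well, the members called were 0 with siNCOA4, 1 with DFO, 0 with both treatments against siControl, 0 against DFO alone and 0 against siNCOA4. Scaling without small RNA genes took the median of all genes from 0.0103 to 0.101 (siNCOA4+DFO against siControl) and from -0.00618 to 0.126 (against siControl+DFO). It called Nfu1 as a second member with both treatments against siControl (0.33, adjusted p = 0.0489, so 2 members) and turned the sign of values near 0: Iscu with siNCOA4 to 0.042, Glrx5 with both treatments to 0.068, and Isca1 (0.039) and Nfu1 (0.069) with both treatments against DFO. With no filter, or with the compared groups alone, 0 members were called with siNCOA4.

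Of the lists with siNCOA4, cluster transfer and late mitochondrial assembly had 0 calls with no filter, 0 with the groups alone and 2 with small RNA genes left out of the scaling. Mitochondrial iron-sulfur proteins had 2 under that scaling and 0 with no trend, and cytosolic and nuclear iron-sulfur proteins had 1 with FPKM of at least 2. Cytosolic cluster assembly with DFO had 1 call with a pseudocount of 0.01, no filter, the block, no trend or the groups alone. With both treatments it had 1 with no filter, the block or no trend and 0 with the groups alone. Mitochondrial iron-sulfur proteins had 7 to 10 calls with DFO over the 9 alternatives that kept all libraries, lowest with no filter. With both treatments they had 6 to 8, lowest with small RNA genes left out of the scaling.

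Replicates with the same number did not deviate together (r of deviations -0.127 to 0.116 over 18 pairs, against -0.174 to 0.162 for different numbers), and 2 of 12 libraries correlated best with one of their own number. The replicate block called Nfu1 with DFO as well (adjusted p = 0.0316) and changed no other call of a member. All genes called with siNCOA4 went from 1399 to 1181 under the block, and those of the interaction from 250 to 171.

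When single libraries were dropped in turn, the members called ranged from 0 to 1 with siNCOA4, from 2 to 4 with DFO, from 1 to 2 with both treatments against siControl, from 1 to 2 against DFO alone and from 1 to 2 against siNCOA4. Values not called that changed sign were, with siNCOA4, Nfs1 (-0.044 to 0.24), Lyrm4 (-0.023 to 0.17), Iscu (-0.33 to 0.18) and Hscb (-0.19 to 0.29). With DFO they were Hscb (-0.16 to 0.33) and Isca2 (-0.21 to 0.064), and with both treatments Glrx5 (-0.11 to 0.084), Isca1 (-0.035 to 0.085) and Isca2 (-0.11 to 0.17). Against DFO alone it was Nfu1 (-0.16 to 0.039), against siNCOA4 they were Glrx5 (-0.0061 to 0.24) and Nfu1 (-0.16 to 0.033), and in the interaction it was Hscb (-0.034 to 0.45). The cause of these changes was not tested. Fragment totals are unknown, so the depth behind a member's value cannot be given, and 3 libraries per group leave intervals of the width shown above.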
